A study of Arabidopsis thaliana with 38 samples.

Results

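The comparison set ground tissue of an Arabidopsis thaliana line in which a UAS promoter drives BLJ in the SHR background against wild-type ground tissue. It rests on 6 of the 38 ATH1 arrays of the study. These are 3 arrays titled SHR UAS driving BLJ (replicates 1 to 3, called UAS-BLJ here) and 3 one-cycle wild-type arrays (WT, replicates 2_1 to 2_3). They were chosen by their titles, and their spike-in control probes read more nearly alike than those of some other lines. The 3 one-cycle arrays labelled SHR (replicates 2_1 to 2_3) show where the driven line started. All of these groups are of the C24 ecotype and carry the marker J0571, an enhancer trap that makes the transcription activator Gal4 and a fluorescent protein in the ground tissue, so that the cells could be sorted and UAS genes switched on in them. Roots were taken 5 days after germination on standard medium, and the labels speak of protoplasted cells or tissue. The labels do not say whether SHR stands for a mutant allele, how many lines were made, or whether the replicates came from separate plants or days. All p-values therefore measure only the spread between arrays, pooled over the 24 one-cycle arrays that were fitted together. RNA was read as 1 colour after one-cycle biotin labelling, and each group has 3 arrays, which limits the precision of every value below.

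In the root, the transcription factor SHR is made in the central cylinder and moves outward into the neighbouring layer, where it acts with SCR and with zinc finger proteins of the BIRD family, among them BLJ, JKD, BIB, MGP, NUC and IME. Together they set off the division that separates cortex from endodermis and give the inner layer its identity. The endodermis then builds the Casparian strip, a lignin ring in its walls that seals the path between cells, using class III peroxidases, dirigent proteins and receptor kinases that survey the seal. Plants that lack SHR form ground tissue without endodermal features. The comparison asks how much of the wild-type profile BLJ leaves unrestored, and where it carries expression past the wild type.

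Signals are linear MAS5 values, and changes are differences of log2(signal + 16) given with their standard error (SE). A probe set is said to be called at an adjusted p under 0.05 by limma over all 22746 non-control probe sets, in a fit of the 24 one-cycle arrays of 8 groups. Group values are means ± SD (n = 3). The median signal was 71.4 to 76.1 on the WT arrays and 78.5 to 80.1 on the UAS-BLJ arrays, and the 10th percentile was 3.02 to 3.89 and 3.6 to 3.98. The log2 ratio of the bioB to the cre spike-in probes was -5.10 ± 0.09 in WT, -5.46 ± 0.17 in SHR and -5.44 ± 0.08 in UAS-BLJ. The actin control stood apart between the groups. Its probes at the 3' end exceeded those at the 5' end by -0.35 ± 0.60 (log2) in WT, 0.94 ± 0.03 in SHR and 0.83 ± 0.11 in UAS-BLJ. A second ratio of actin probes was 1.78 ± 0.26, 4.06 ± 0.14 and 3.56 ± 0.14, while the GAPDH ratio was -0.04 ± 0.08, -0.09 ± 0.02 and -0.07 ± 0.10. The part of this difference in the results below was not tested. Names of genes are those of the probe annotation and the TAIR10.1 gene table, and loci without a symbol there carry the usual name of the gene, such as BLJ for AT1G14580.

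The driven gene passed its wild-type level. BLJ read 212, 166 and 210 on the WT arrays, 17.9, 20.9 and 3.87 on the SHR arrays and 488, 411 and 430 on the UAS-BLJ arrays. All UAS-BLJ arrays lay above all WT arrays, and all WT arrays above all SHR arrays. The change against WT was 1.12 ± 0.38 (adjusted p = 0.0356), a call that was lost when any 1 of the UAS-BLJ or WT arrays was left out (changes of 1.01 to 1.18, adjusted p = 0.066 without UAS-BLJ 2 to 0.106 without UAS-BLJ 1). The SE of this change pools the spread within all 8 groups of the fit, not only within WT and UAS-BLJ. The probe set does not separate RNA of the transgene from RNA of the gene itself. In the other 5 UAS lines, titled as driving NUC, MGP, JKD, SCR or IME, the mean BLJ signal was 5.56 to 29.8. None of the named probe sets stands for SHR or SCR.

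UAS-BLJ differed widely from WT. The limma test called 5347 probe sets (23.5% of 22746). UAS-BLJ was the higher group at 2883 (12.7%) and the lower group at 2464 (10.8%), and the median change over all probe sets was 0.032. Of the calls, 2378 (10.5%) were at 2-fold or more, 1287 higher (5.66%) and 1091 lower (4.8%). WT against SHR gave 5150 calls (22.6%), 2061 of them at 2-fold or more (9.06%), with WT higher at 1017 (4.47%) and lower at 1044 (4.59%). UAS-BLJ against SHR gave 1597 calls (7.02%), 934 upward (4.11%) and 663 downward (2.91%). At 2-fold or more these were 844 (3.71%), 501 up (2.2%) and 343 down (1.51%). The count of 1597 was 1050 without UAS-BLJ 2 and 2813 when only the 6 arrays of those groups were fitted, and the downward count was 437 without UAS-BLJ 1 and 440 without UAS-BLJ 3. These contrasts share arrays, so their values for the same genes are given side by side and not as separate evidence.

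Each probe set that differed between WT and SHR by at least 2-fold was placed by its UAS-BLJ value. Of the 2061 such probe sets, 1255 (60.9%) also differed from WT by at least 2-fold in UAS-BLJ on the side of SHR and are called unrestored, 659 of them high in WT and 596 low in WT. For 189 (9.17%) the 95% interval of the change against WT lay within 1 log2 unit of 0, and these are called restored, 85 high and 104 low in WT. This rule does not ask that UAS-BLJ be called different from SHR, and such calls were not counted here. The median change against SHR was 1.005 and -1.11 in these classes, beside a median WT minus SHR of 1.12 and -1.28. Only 7 (0.34%) passed WT on the far side, and 610 (29.6%) fell in none of these classes. A further 672 probe sets differed from WT by at least 2-fold although WT and SHR were not called different, 438 of them with UAS-BLJ higher and 234 with UAS-BLJ lower. With a pseudocount of 64 in place of 16 the unrestored counts were 390 and 274.

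Within the unrestored class, most probe sets were not called different between UAS-BLJ and SHR, although those called were a larger share than the 7.02% over all probe sets. There was no such call at 605 of the 659 probe sets high in WT (91.8%) and at 500 of the 596 low in WT (83.9%). UAS-BLJ was called between SHR and WT at 31 probe sets, 9 high and 22 low in WT, a count that was 16 without UAS-BLJ 2, 18 without UAS-BLJ 1 or 3 and 18 without SHR 2_2 or 2_3. It was called beyond SHR, further from WT, at 119 probe sets, 45 high and 74 low in WT. The median change against SHR was -0.04 in the WT-high class and 0.07 in the WT-low class, beside -1.62 and 1.57 against WT. Of the 1255 unrestored probe sets, 327 (26.1%) differed in the same direction by at least 2-fold in the separate two-cycle arrays of WT and SHR and 75 (5.98%) in the opposite one, where 14.3% of all probe sets differed. The restored class gave 45 (23.8%) and 15 (7.94%) of 189.

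**Figure D1:**
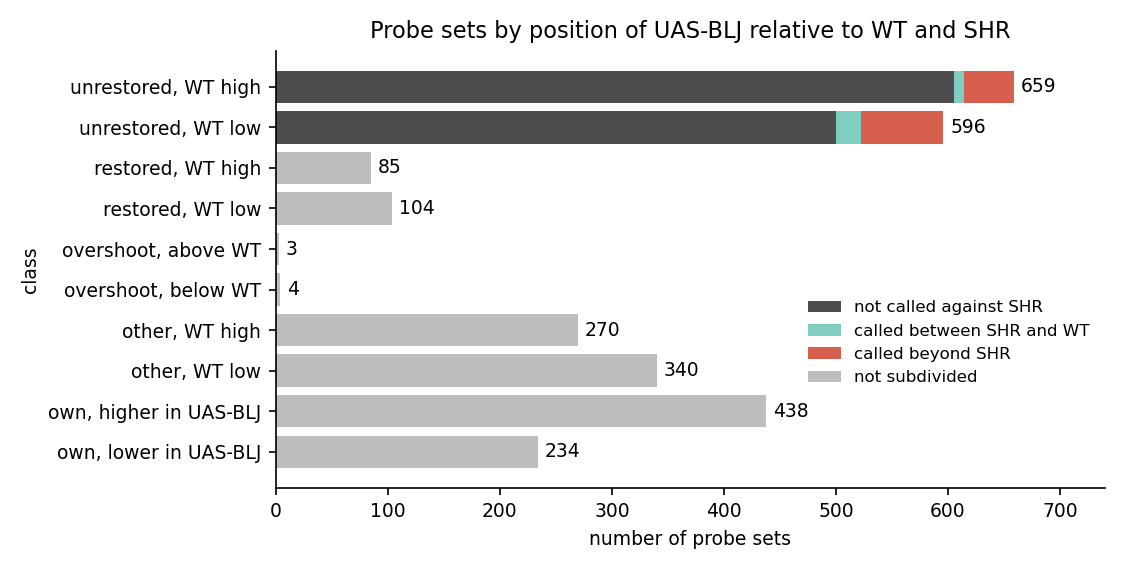
Number of probe sets (horizontal axis, from 0) in each class of the comparison (vertical axis), with the unrestored bars split by the call of UAS-BLJ against SHR. The unrestored bars, 659 and 596, are mostly made of probe sets not called different from SHR, and the overshoot bars hold 3 and 4.

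Genes of the Casparian strip were far below WT in UAS-BLJ. Of the 23 endodermis genes listed, 9 had a named probe set, and 7 of these were lower in UAS-BLJ than in WT (all at 2-fold or more, where 4.8% of all probe sets were), 1 was higher and 1 was not called. Their median change was -4.25, beside 0.032 over all probe sets. Against SHR none was higher and 3 were lower (4.11% and 2.91% of all probe sets were). The summed signal of the 9 genes was 17840 to 25000 on the WT arrays, 1860 to 2780 on the SHR arrays and 1469 to 1672 on the UAS-BLJ arrays. In sorted bulk RNA, fewer cells of a type and less RNA per cell cannot be told apart.

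The class III peroxidases of this list oxidise lignin precursors in the wall. PER39 read 5358, 4416 and 5488 on the WT arrays, 36.4, 22.9 and 35.4 on the SHR arrays and 3.33, 3.1 and 16.6 on the UAS-BLJ arrays. The groups did not overlap, and UAS-BLJ lay below SHR as well as below WT. The change against WT was -7.79 ± 0.27 (adjusted p = 7.14e-15) and that against SHR -1.04 ± 0.27 (adjusted p = 0.0158). PER72 read 5236, 3516 and 4921 in WT, 425, 275 and 363 in SHR and 97.2, 157 and 106 in UAS-BLJ. It too was lowest on every UAS-BLJ array, with changes of -5.07 ± 0.42 against WT (adjusted p = 5.77e-09) and -1.45 against SHR (adjusted p = 0.0357). PER9 read 3182, 2015 and 3104 in WT, 149, 92.6 and 161 in SHR and 71.8, 87.2 and 96.8 in UAS-BLJ. Here the UAS-BLJ and SHR arrays overlapped, and the change was -4.76 ± 0.36 against WT (adjusted p = 1.61e-09) and -0.54 against SHR (adjusted p = 0.492).

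The dirigent protein genes of the list, which belong to a family that guides lignin coupling, behaved alike. DIR9 read 3170, 1994 and 2900 in WT, 376, 239 and 313 in SHR and 90.6, 119 and 99.6 in UAS-BLJ. All groups were separate, with UAS-BLJ lower than WT by -4.48 ± 0.31 (adjusted p = 5.09e-10) and lower than SHR by -1.43 ± 0.31 (adjusted p = 0.00465). DIR18 read 4139 ± 773 in WT, 369 ± 146 in SHR and 200 ± 22.2 in UAS-BLJ, a change of -4.25 ± 0.38 against WT (adjusted p = 1.85e-08) and -0.76 against SHR (adjusted p = 0.304). Its lowest SHR array, at 201, lay within the UAS-BLJ range of 175 to 217.

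The signalling genes of the barrier were also lower. SGN1, a receptor-like cytoplasmic kinase gene, read 1407, 1057 and 1514 in WT, 164, 126 and 147 in SHR and 62.2, 79.7 and 67.6 in UAS-BLJ. Every UAS-BLJ array was below every SHR array, but the change against SHR, -0.91 ± 0.33, was not called (adjusted p = 0.116), while that against WT was -3.96 ± 0.33 (adjusted p = 8.31e-09). GSO1, a receptor kinase gene of the same pathway, read 1650, 1080 and 1451 in WT, 364, 227 and 252 in SHR and 396, 420 and 343 in UAS-BLJ. It was the member with the smallest fall, -1.79 ± 0.27 (adjusted p = 3.21e-05), and read 0.46 above SHR (adjusted p = 0.423). The marker gene EN7 read 306, 449 and 405 in WT and 495, 502 and 508 in UAS-BLJ, a change of 0.38 ± 0.26 that was not called (adjusted p = 0.339). SCL23, a gene for a GRAS protein related to SCR, was higher by 0.84 ± 0.23 (39 ± 24.1 in WT and 76.7 ± 11.2 in UAS-BLJ, adjusted p = 0.00983), but not without WT 2_1 (0.52, adjusted p = 0.1).

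**Figure D2:**
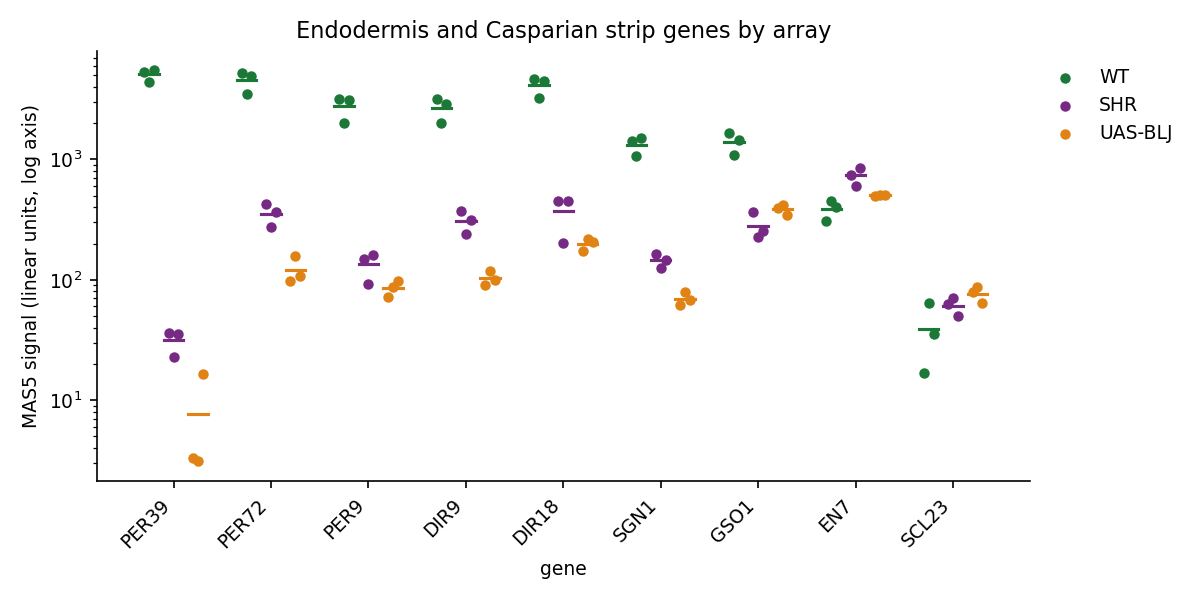
Signal of the 9 measured endodermis genes (horizontal axis) on each array, in linear MAS5 units on a log axis, with a bar at each group mean (3 arrays per group). From PER39 to GSO1 all WT arrays lie above all SHR and UAS-BLJ arrays; EN7 and SCL23 do not share that pattern.

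Other genes high in WT were low in UAS-BLJ as they were in SHR. AT5G45210, a resistance gene of the TIR-NBS-LRR class, read 776, 1166 and 1065 on the WT arrays, at most 2.5 on the SHR arrays and at most 1.54 on the UAS-BLJ arrays. Among these groups it was high on the WT arrays alone, with a change of -5.87 ± 0.20 (adjusted p = 7.14e-15). AT2G14900, of the gibberellin-regulated family, read 4554, 4389 and 5255 in WT, 117, 105 and 58.3 in SHR and 90.9, 111 and 94.7 in UAS-BLJ (-5.37 ± 0.23, adjusted p = 1.28e-13). SHR and UAS-BLJ overlapped and did not differ by a call (0.11, adjusted p = 0.895). AT4G29200 read 1336 ± 163 in WT, 9.29 ± 8.24 in SHR and 23.9 ± 8.09 in UAS-BLJ (-5.10 ± 0.27, adjusted p = 4.85e-12). AT1G30750 followed the barrier genes, with 4203 ± 708 in WT, 379 ± 85.5 in SHR and 151 ± 24.2 in UAS-BLJ, and was called beyond SHR (-1.22 ± 0.32, adjusted p = 0.0187).

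Genes for the BIRD family and for endoplasmic reticulum bodies added members to this class. BIB, a BIRD gene that acts beside JKD, read 43, 59.2 and 55.8 in WT, 7.19, 11.4 and 8.2 in SHR and 24.4, 11.2 and 18 in UAS-BLJ. It was lower than in WT on every array (-1.03 ± 0.19, adjusted p = 0.000272) and read 0.43 above SHR (adjusted p = 0.224). Of 4 measured genes of the BIRD and IDD family BLJ was higher, JKD and BIB were lower, and IDD16 was not called (0.72, adjusted p = 0.0889, but 0.0115 in the fit of the 9 arrays of these groups). Over all probe sets 12.7% were higher and 10.8% lower. NAI1, the transcription factor gene that the bodies need, read 173 ± 75 in WT, 45.3 ± 14.3 in SHR and 57.5 ± 11.1 in UAS-BLJ (-1.30 ± 0.25, adjusted p = 0.000487). NAI2, a gene for a protein of the bodies, read -1.52 ± 0.48 (adjusted p = 0.0233), a call lost without UAS-BLJ 1 or 3 or WT 2_1 or 2_3 (adjusted p = 0.0612 to 0.137). The other measured members, PYK10 (-0.51, adjusted p = 0.327) and JAL33 (0.05, adjusted p = 0.956), were not called.

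Genes low in WT and high in SHR mostly remained high, and several went higher still. AT2G43620, of the chitinase family, read 67.1, 21.2 and 27.4 on the WT arrays, 209, 117 and 149 on the SHR arrays and 1818, 2007 and 1739 on the UAS-BLJ arrays. The groups did not overlap, and UAS-BLJ was above WT by 5.19 ± 0.37 (adjusted p = 7.64e-10) and above SHR by 3.46 ± 0.37 (adjusted p = 1.9e-06). AT4G15390, of the HXXXD acyltransferase family, read 16.9, 18.7 and 12.1 in WT, 514, 372 and 334 in SHR and 854, 1038 and 888 in UAS-BLJ (4.89 ± 0.27, adjusted p = 1.03e-11). It was also called beyond SHR, by 1.18 ± 0.27 (adjusted p = 0.00675). AT2G38870, a protease inhibitor gene of the potato inhibitor I type, read 120 ± 37.5 in WT, 1747 ± 552 in SHR and 2866 ± 167 in UAS-BLJ (4.43 ± 0.36, adjusted p = 4.24e-09), with no call against SHR (adjusted p = 0.264). In the other 5 lines it read 1303 to 4884, so that its level in UAS-BLJ was within their range.

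Some of these genes were near the floor in WT. AT2G40010, a ribosomal protein P0 gene, read 2.61, 1.1 and 2.07 in WT, 340, 432 and 442 in SHR and 450, 439 and 478 in UAS-BLJ (4.72 ± 0.30, adjusted p = 1.39e-10). AT2G14460 read 2.07 ± 0.51 in WT, 142 ± 40.8 in SHR and 516 ± 53.4 in UAS-BLJ (4.88 ± 0.25, adjusted p = 3.12e-12). AT1G65500 read 2.67 ± 1.42 in WT, 61.9 ± 6.08 in SHR and 364 ± 87.3 in UAS-BLJ (4.33 ± 0.30, adjusted p = 5.32e-10). All WT arrays of these genes were below 5, and the change on this scale understates the ratio of the signals. AT5G40590 had 11.4 ± 8.21 in WT, 284 ± 132 in SHR and 551 ± 86.9 in UAS-BLJ (4.41 ± 0.39, adjusted p = 1.91e-08).

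Among genes called between SHR and WT was a glucosinolate gene. GSL-OH (AT2G25450), the dioxygenase of aliphatic glucosinolate side chains, read 11.3 ± 7.12 in WT, 1801, 1143 and 1870 on the SHR arrays and 579, 555 and 432 on the UAS-BLJ arrays. UAS-BLJ lay between the other groups with no overlap, 4.32 ± 0.32 above WT (adjusted p = 1.24e-09) and below SHR (-1.57 ± 0.32, adjusted p = 0.00274). The mean was below SHR in the other driven lines too, at 26.3 in the JKD and SCR lines and 431 to 938 in the MGP, IME and NUC lines. GSL-OH was the 1 called member of 5 measured glucosinolate genes, a share near the 23.5% called over all probe sets. Genes of auxin conjugation moved in both directions. GH3.3, an auxin-conjugating enzyme gene induced by auxin, read 132, 93.9 and 136 in WT, 2198, 1334 and 1878 in SHR and 877, 1380 and 972 in UAS-BLJ, all above WT (2.99 ± 0.36, adjusted p = 1.89e-06) and overlapping SHR (-0.73, adjusted p = 0.301). WES1, of the same family, was higher than in WT by 1.97 ± 0.29 (adjusted p = 2.01e-05), whereas GH3.1 was lower (-1.58 ± 0.33, 42.1 ± 10 in WT and 3.24 ± 0.86 in UAS-BLJ, adjusted p = 0.00104). Of 9 auxin response genes measured 3 were higher and 2 lower (12.7% and 10.8% of all probe sets were), with a median of 0.20. IAA20, the other one lower (-0.83, adjusted p = 0.0171), lost its call without UAS-BLJ 3 or WT 2_1 or 2_2 (adjusted p = 0.0502 to 0.0924). No member of the list was called between UAS-BLJ and SHR, where 7.02% of probe sets were.

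The two-cycle arrays gave a choice of probe sets that used no array of the comparison. In those arrays 1649 probe sets (7.25%) were at least 2-fold higher in WT than in SHR. Of these, 22.5% were called lower in UAS-BLJ than in one-cycle WT (10.8% of all probe sets) and 6.91% higher (12.7%), with a median change of -0.08. Among the 1596 probe sets lower in two-cycle WT (7.02%), 29.3% were called higher in UAS-BLJ and 12.1% lower, with a median of 0.20. Both sets therefore leaned to the side that SHR took on the two-cycle arrays, while most of their members were not called. On the one-cycle arrays WT and SHR themselves differed little at these sets, with median WT minus SHR of 0.033 in the first and -0.127 in the second. The median of UAS-BLJ minus SHR was -0.066 and 0.107, so the lean cannot be read as a position between one-cycle SHR and WT. The median of the first set was -0.04 without WT 2_2, -0.12 without WT 2_1 and -0.22 without two-cycle WT 3. It was also -0.20 without two-cycle WT 1 and -0.13 and -0.18 without two-cycle SHR 1 and 2. The median of the second set was 0.30, 0.12 and 0.34 without two-cycle WT 1, 2 and 3. The actin 3' to 5' ratio of the two-cycle arrays themselves was -2.47 ± 0.13 (log2) in WT and 2.78 ± 0.42 in SHR, and its part in the choice was not tested.

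An array score over these sets, the mean of the first set minus that of the second with SHR placed at 0, placed UAS-BLJ no nearer to WT. The score was 0.196, 0.592 and 0.434 on the WT arrays, -0.176, 0.182 and -0.006 on the SHR arrays and -0.204, -0.295 and -0.083 on the UAS-BLJ arrays. All UAS-BLJ arrays were below all WT arrays, and UAS-BLJ overlapped SHR. Group means of the other 5 lines ran from -0.79 to -0.09, but their 10th percentile of signal, 8.08 to 10.2, was above that of WT, SHR and UAS-BLJ, and its part in the score was not tested.

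**Figure D3:**
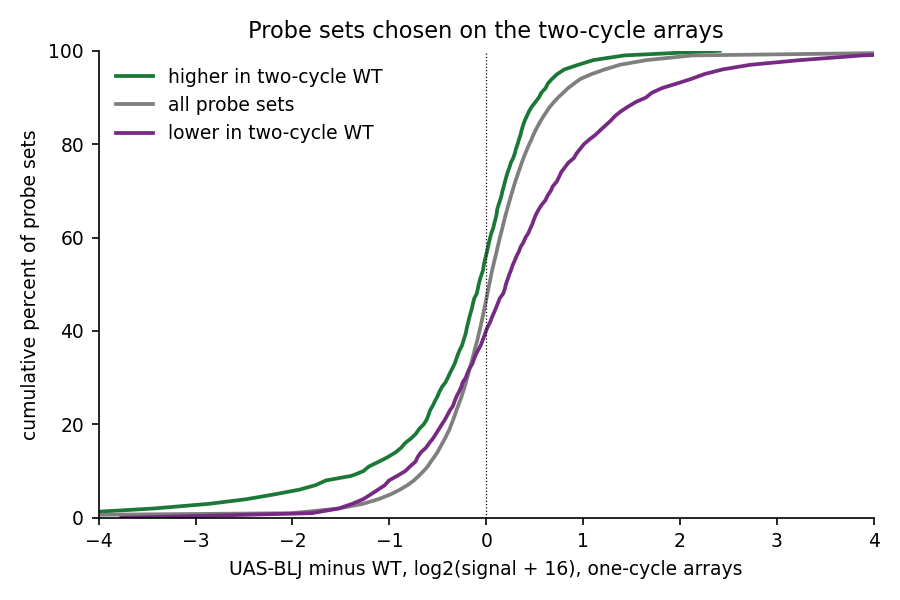
Cumulative percent of probe sets (vertical axis) by their change between UAS-BLJ and WT on the one-cycle arrays (horizontal axis, log2, shown from -4 to 4). The curve of the 1649 probe sets higher in two-cycle WT has its median at -0.08 and that of the 1596 lower in two-cycle WT at 0.20, beside 0.03 over all probe sets.

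The restored class held genes that read close to WT in UAS-BLJ, some of them near WT in other driven lines as well. Among those high in WT, AT4G22110, of the alcohol dehydrogenase family, read 736, 338 and 464 on the WT arrays, 87.9, 44.2 and 70 on the SHR arrays and 404, 446 and 424 on the UAS-BLJ arrays. All UAS-BLJ arrays fell within the WT range, with a change of -0.19 ± 0.29 (95% interval -0.79 to 0.40) against WT and 2.44 against SHR (adjusted p = 5.93e-06). In the IME line it read 615. AT4G36640, of the Sec14-like lipid transfer family, read 1434, 909 and 1445 in WT, 482, 377 and 299 in SHR and 1163, 1075 and 1431 in UAS-BLJ (-0.03 ± 0.20 against WT, interval -0.44 to 0.39). AT3G01830, a calmodulin-like gene, read 216 ± 32.1 in WT, 56.8 ± 22.9 in SHR and 198 ± 43.6 in UAS-BLJ (interval -0.71 to 0.46). AT1G71710 (244 ± 41.2, 73.7 ± 25.8 and 203) and AT5G52750 (107 ± 14.2, 25 ± 5.83 and 81.8 ± 24.7), with the groups in the same order, were also within the interval. AT5G47060 met the same rule but stayed called below WT by a smaller change, -0.60 ± 0.16 (adjusted p = 0.00822). Of these genes only AT5G47060 was called between WT and SHR on the two-cycle arrays (740 against 174, adjusted p = 0.00172). There AT4G22110 (214 against 363, adjusted p = 0.264) and AT3G01830 (248 against 337, adjusted p = 0.529) had the opposite order, and AT4G36640 read 467 against 352 (adjusted p = 0.938).

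From the other side, CO2, whose promoter marks the cortex, read 182, 312 and 222 on the WT arrays, 1285, 1415 and 1622 on the SHR arrays and 232, 211 and 218 on the UAS-BLJ arrays. The UAS-BLJ arrays fell inside the WT range, with a change of -0.08 ± 0.44 against WT (interval -0.98 to 0.83, adjusted p = 0.943) and -2.62 ± 0.44 against SHR (adjusted p = 0.000377). The mean in the other 5 lines was 142 to 778, below SHR in each. On the two-cycle arrays CO2 read 1047 in WT and 381 in SHR, the opposite order, with no call (1.75 ± 1.09, adjusted p = 0.293). AT1G33110, a transporter gene of the MATE efflux family, read 137 ± 21.2 in WT, 787 ± 115 in SHR and 208 ± 21.4 in UAS-BLJ (0.55 ± 0.21 against WT, adjusted p = 0.0655, but 0.0157 in the fit of 9 arrays), and 186 in the NUC line and 199 in the JKD line. AT1G17300 read 63.5 ± 3.72, 385 ± 85.4 and 50.9 ± 2.08 in the same order (-0.25 ± 0.17, adjusted p = 0.326), and on the two-cycle arrays it was higher in WT, 110 against 29.1 (adjusted p = 0.0259). AT1G31950, a terpene synthase gene, read 302 ± 44, 1218 ± 161 and 299 ± 46.5 (-0.01 ± 0.20), and AT3G18280 read 37.1 ± 14.7, 194 ± 26.8 and 42.9 ± 4.27 (0.19 ± 0.33), with 59.4 to 69.3 in the NUC, MGP and IME lines. AT5G23830, of the MD-2-related lipid recognition family, read 544 ± 73.1, 1954 ± 188 and 803 ± 115, at the edge of a call against WT (0.55 ± 0.20, adjusted p = 0.0559). With the 9 arrays of these groups alone it was called (adjusted p = 0.0106), and the restored count low in WT was then 173 in place of 104. On the two-cycle arrays AT1G33110 and AT5G23830 were also called lower in WT than in SHR (adjusted p = 0.0121 and 0.0137). AT3G18280 (828 against 415, adjusted p = 0.163) and AT1G31950 (136 against 119, adjusted p = 0.719) read higher in WT there, with no call.

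The cortex list as a whole did not follow CO2. Of its 5 measured genes 3 were higher in UAS-BLJ than in WT and 1 was lower (12.7% and 10.8% of all probe sets were), with a median change of 0.67, and the summed signal was 1195 to 1690 on the WT arrays, 3520 to 4052 on the SHR arrays and 5759 to 6594 on the UAS-BLJ arrays. In UAS-BLJ most of that sum was CORTEX (AT1G09750), a gene used as a cortex marker that encodes a protein of the aspartyl protease family. CORTEX read 562, 896 and 651 in WT, 978, 841 and 586 in SHR and 4958, 5231 and 5758 in UAS-BLJ. WT and SHR overlapped, while every UAS-BLJ array was far above both, by 2.92 ± 0.24 against WT (adjusted p = 7.04e-09) and 2.73 against SHR (adjusted p = 1.33e-07). The other 5 lines had means of 819 to 2233. AT1G62510, a lipid transfer type gene next to CO2, read 23.7, 28.1 and 29.4 in WT, 1423, 953 and 1058 in SHR and 201, 150 and 183 in UAS-BLJ, between the other groups (2.16 ± 0.27 above WT, adjusted p = 2.05e-06, and -2.57 against SHR). It too had the opposite order on the two-cycle arrays, 66.8 in WT and 13.3 in SHR (adjusted p = 0.025). AT5G02000 was unrestored (206 ± 29.4 in WT, 88.9 ± 26.5 in SHR and 65.5 ± 12.8 in UAS-BLJ, -1.45 ± 0.21, adjusted p = 2.26e-05). NPF6.4, a nitrate transporter gene, was higher by 0.67 ± 0.17 (adjusted p = 0.00431).

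The overshoot class was small. Of its 3 probe sets above WT, 2 have a name, BLJ itself and AT2G16660, a gene of the major facilitator family. AT2G16660 read 469, 375 and 396 on the WT arrays, 190, 100 and 220 on the SHR arrays and 1051, 904 and 918 on the UAS-BLJ arrays. The 3 groups were separate, with UAS-BLJ above WT by 1.18 ± 0.30 (adjusted p = 0.00566). On the two-cycle arrays the order of WT and SHR was the opposite, 350 against 1248 (-1.74, adjusted p = 0.00707). The third, unnamed, read 685 ± 85.3 in WT, 324 ± 58.8 in SHR and 1439 ± 147 in UAS-BLJ (1.06 ± 0.16). The 4 probe sets below WT, all unnamed, had changes of -2.59, -2.24, -1.71 and -1.04. In the last of these the means were 681 in WT, 1514 in SHR and 319 in UAS-BLJ. The count above WT was 1 without UAS-BLJ 3, WT 2_1 or SHR 2_2, and the count below was 1 without WT 2_1 and 2 without WT 2_3 or SHR 2_1. With a pseudocount of 64 each count was 1.

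A larger class was higher in UAS-BLJ at genes where WT and SHR were not called different. The lack of a call does not make WT and SHR equal. The median WT minus SHR was -0.377 in this class, and 0.415 in the matching class lower in UAS-BLJ. Of the 438 probe sets, 281 were called higher than in SHR too. AT4G16980, of the arabinogalactan protein family, read 39.2, 44.3 and 42.2 on the WT arrays, 71.2, 62 and 41.4 on the SHR arrays and 1048, 969 and 890 on the UAS-BLJ arrays. WT and SHR overlapped and UAS-BLJ stood apart by 4.09 ± 0.21 (adjusted p = 4.85e-12), with means of 49.9 to 184 in the other 5 lines. UGT72E3, a glucosyltransferase gene for monolignols, the building blocks of lignin, read 58.3, 57 and 71.4 in WT, 66.6, 57.8 and 55.3 in SHR and 907, 1114 and 1017 in UAS-BLJ. It was higher by 3.72 ± 0.18 (adjusted p = 8.67e-13), and among the other 5 lines the mean was 33 to 151 in all but the IME line, where it was 720. Its relative UGT72E2 was high in every group and not called (1667 ± 106 in WT and 2049 ± 166 in UAS-BLJ, adjusted p = 0.317).

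Further genes of this class act in the wall and in lipid transfer. AT3G43270, of the pectin methylesterase family, read 37 ± 15.9 in WT, 30.3 ± 3.66 in SHR and 461 ± 70.3 in UAS-BLJ (3.20 ± 0.29, adjusted p = 2.2e-08). XTH32, a xyloglucan-modifying enzyme gene, read 86, 49 and 64.6 in WT and 439, 484 and 328 in UAS-BLJ (2.40 ± 0.26, adjusted p = 4.04e-07), and SHR, at 68.3 ± 31, overlapped WT. AT4G12490, of the lipid transfer protein family, read 26.2 ± 10.6 in WT, 30 ± 8.28 in SHR and 439 ± 43.8 in UAS-BLJ (3.46 ± 0.31, adjusted p = 1.85e-08). PER5, a further peroxidase, read 124, 50 and 74.3 in WT, 389, 138 and 157 in SHR and 939, 1367 and 983 in UAS-BLJ (3.54 ± 0.46, adjusted p = 3.86e-06). On all of these the UAS-BLJ arrays lay above every WT and SHR array. On the two-cycle arrays, however, 3 of them were lower in WT than in SHR: PER5 (154 against 4038, adjusted p = 0.00247), AT4G12490 (38.6 against 378, adjusted p = 0.00273) and XTH32 (58 against 260, adjusted p = 0.015).

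Nuclear genes of photosynthesis were mostly higher in UAS-BLJ, from low levels in WT. Of 11 measured, 8 were higher (all at 2-fold or more, where 5.66% of all probe sets were) and none lower, with a median of 1.41, and 4 of the 8 were also above SHR. Their summed signal was 256 to 320 on the WT arrays, 512 to 655 on the SHR arrays and 1895 to 2035 on the UAS-BLJ arrays. RCA, which encodes the activase of the carbon-fixing enzyme rubisco, read 27.9, 53.4 and 42.3 in WT, 129, 130 and 95.4 in SHR and 795, 783 and 849 in UAS-BLJ. The 3 groups did not overlap, and UAS-BLJ was above WT by 3.87 ± 0.42 (adjusted p = 3.22e-07) and above SHR by 2.63 ± 0.42 (adjusted p = 0.000214). LHCB4.1, a light-harvesting antenna gene, read 28.8 ± 16.8, 63.5 ± 8.2 and 326 ± 62.2 in WT, SHR and UAS-BLJ (2.99 ± 0.34), and its relative LHCB4.2 29 ± 2.52, 50.9 ± 12.7 and 139 ± 17.8 (1.78 ± 0.29). PSAN, a photosystem I subunit gene, was higher by 2.36 ± 0.24 and PSBY, of photosystem II, by 1.41 ± 0.32 (adjusted p = 0.00197). Outside that list AT2G26500, a cytochrome b6f subunit gene, read 21 ± 10, 37.7 ± 18.6 and 337 ± 1.95 (3.29 ± 0.39, adjusted p = 1.24e-06). SBPASE, a Calvin cycle gene, was higher by 1.82 ± 0.38 (adjusted p = 0.000955), and PSBW was not called (1.18 ± 0.52, adjusted p = 0.113, but 0.00904 in the fit of 9 arrays). RCA read 223 to 1020 in the other 5 lines, the highest in the IME line. There PSBY read 131 to 316, beside 176 in UAS-BLJ, LHCB4.1 102 to 463 and PSAN 82.6 to 205, beside 188. Each of these was highest in the IME line and above UAS-BLJ there, while LHCB4.2, at 70.65 to 128, was below UAS-BLJ in all.

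Genes of the plastid genome were more often lower than higher against WT. Of 69 measured, 4 were higher and 17 lower in UAS-BLJ (12.7% and 10.8% of all probe sets were), with a median of -0.32. Against SHR 9 were higher and none lower (4.11% and 2.91%), with a median of 0.18. Their summed signal was 32690 to 35980 on the WT arrays, 25690 to 30750 on the SHR arrays and 30240 to 40010 on the UAS-BLJ arrays, and UAS-BLJ overlapped both. Between WT and SHR 28 of them were higher in WT (11.5% of all probe sets were) and 2 lower. The gene rpoC2, for a subunit of the plastid RNA polymerase, read 188, 269 and 210 in WT, 57.3, 61.6 and 91.6 in SHR and 62.2, 99 and 53.7 in UAS-BLJ (-1.46 ± 0.24, adjusted p = 6.44e-05). On the two-cycle arrays rpoC2 had the opposite order, 235 in WT and 932 in SHR (adjusted p = 0.00911). The gene ndhD, for a subunit of the plastid NADH dehydrogenase-like complex, changed by -1.34 ± 0.24 and psbT, of photosystem II, by -1.64 ± 0.31 (adjusted p = 0.000387). Of those higher, petB, for cytochrome b6, read 639, 738 and 649 in WT, 744, 722 and 709 in SHR and 1589, 1348 and 1404 in UAS-BLJ (1.08 ± 0.17, adjusted p = 5.47e-05). No UAS-BLJ array overlapped the others. The count higher was 1 without UAS-BLJ 1 and 7 without UAS-BLJ 3, and the count lower was 11 without WT 2_1.

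Fewer probe sets were lower in UAS-BLJ where WT and SHR were not called different. Of the 234, 123 were also called below SHR. JKD, the BIRD gene that keeps SHR in its layer, read 150, 169 and 122 on the WT arrays, 213, 175 and 257 on the SHR arrays and 34.1, 37 and 19.4 on the UAS-BLJ arrays. UAS-BLJ lay below all others, by -1.83 ± 0.22 against WT (adjusted p = 1.82e-06) and -2.33 against SHR (adjusted p = 3.4e-07). Among the other 5 lines its mean was 23.2 in the IME line and 64.8 to 190 in the NUC, MGP and SCR lines. In the line titled as driving JKD it was 102, below the means of WT (147) and SHR (215), so JKD RNA was not raised there. AT1G10390 read 277, 345 and 271 in WT, 231 ± 28.7 in SHR and 10.9, 15.5 and 0.96 in UAS-BLJ (-3.68 ± 0.34, adjusted p = 4.18e-08). Its mean was also low in the MGP, JKD and SCR lines, at 24.2, 53.7 and 26.7, but was 541 in the NUC line and 318 in the IME line. AT3G57010, of the strictosidine synthase-like family, read 3111, 1668 and 1562 in WT, 1898, 1055 and 1008 in SHR and 346, 299 and 336 in UAS-BLJ (-2.56 ± 0.31, adjusted p = 1.91e-06).

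Of the other genes in this class, 4 follow. AT5G17850, of the cation exchanger family, read 478 ± 113, 248 ± 58 and 91.6 ± 23 in WT, SHR and UAS-BLJ (-2.20 ± 0.39, adjusted p = 0.000194). AT4G22460 read 903 ± 256, 1425 ± 321 and 186 ± 13.5 (-2.14 ± 0.26, adjusted p = 1.5e-06), and AT5G48480 202 ± 54, 124 ± 14.5 and 33.4 ± 2.81 (-2.11 ± 0.34). AT5G05790 changed by -2.15 ± 0.40 (adjusted p = 0.000334), with no call against SHR (adjusted p = 0.088). On every one of these the highest UAS-BLJ array was below the lowest WT array. On the two-cycle arrays, however, AT4G22460 (215 against 880, adjusted p = 0.0137) and AT5G17850 (324 against 948, adjusted p = 0.0332) were lower in WT than in SHR. AT5G05790 was higher in WT there (337 against 79.3, adjusted p = 0.0127), and AT5G48480 was not called (adjusted p = 0.386).

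The class III peroxidase family split into opposite ends of the comparison. Of 73 genes listed 55 were measured, 15 higher in UAS-BLJ than in WT, 9 lower and 31 not called (12.7% and 10.8% of all probe sets were higher and lower), with a median of 0.21. The 9 lower ones were all at 2-fold or more, and 7 of them were unrestored: PER39, PER72 and PER9 above, PER40 (-3.78 ± 0.23), Prx37 (-3.19 ± 0.32), PER47 (-2.37 ± 0.24) and PER54 (-2.13 ± 0.29). PER40 read 314 ± 43.1 in WT, 14.6 ± 4.45 in SHR and 8.42 ± 5.86 in UAS-BLJ. At the other end PER71 read 42.6, 37.3 and 27.5 in WT, 1372, 702 and 913 in SHR and 1575, 1849 and 1344 in UAS-BLJ, with no overlap between WT and the rest (4.95 ± 0.35, adjusted p = 5.93e-10). PER49 was higher by 4.13 ± 0.44 (99.6, 929 and 1916 as means of WT, SHR and UAS-BLJ) and PER69 by 2.23 ± 0.29 (961, 3999 and 4513). PER45, the one with the highest signal among those called, read 6523, 8401 and 13310 as means and was above WT by 1.03 ± 0.17 (adjusted p = 7.06e-05). PER58 (2.28 ± 0.36) and PER70 (2.19 ± 0.25) were called higher against both WT and SHR.

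**Figure D4:**
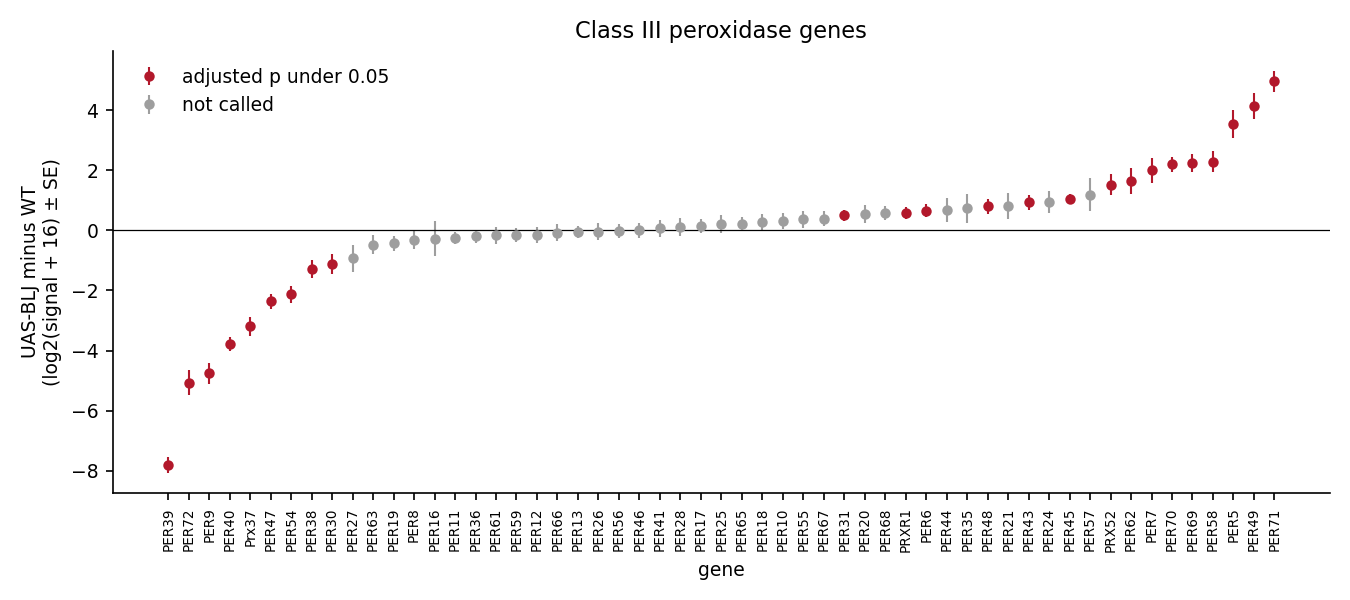
Change between UAS-BLJ and WT (vertical axis, log2(signal + 16), with SE) of the 55 measured class III peroxidase genes, in order of the change (horizontal axis). Called genes are in red. PER39 at -7.79 and PER71 at 4.95 mark the ends, and 31 genes were not called.

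Other wall families are small, and their counts are to be read beside the 12.7% of all probe sets that were higher and the 10.8% that were lower. Of 9 xyloglucan endotransglucosylase genes (XTH) 2 were higher and 2 lower. XTH16 read 489, 598 and 599 in WT, 71.8 ± 3.78 in SHR and 115, 145 and 137 in UAS-BLJ (-1.96 ± 0.37, adjusted p = 0.000366), and XTH21 was near the floor outside WT (83.9 ± 36.4 in WT and 1.31 ± 0.69 in UAS-BLJ). XTH33 was higher than in WT by 1.46 ± 0.33. Of 18 expansin genes 3 were higher and 3 lower. EXPA4 read 112 ± 5.32, 293 ± 16.1 and 436 ± 11.5 in WT, SHR and UAS-BLJ (1.82 ± 0.26, adjusted p = 1.56e-05), and EXPA20 changed by 1.94 ± 0.25. On the two-cycle arrays EXPA4 had the opposite order, 296 in WT and 96.7 in SHR (adjusted p = 0.0109). Of 22 genes of the trichome birefringence-like family, which acetylate wall polymers, 3 were lower and 2 higher, a share called near the 23.5% over all probe sets. TBL30 read 634 ± 74.9 in WT, 40.5 ± 7.13 in SHR and 32.9 ± 7.99 in UAS-BLJ (-3.74 ± 0.20, adjusted p = 4.93e-12). Pectin methylesterase genes gave 2 higher and none lower of 4, with ATPMEPCRB at 112 ± 17.2, 173 ± 45.8 and 898 ± 209 (2.82 ± 0.32, adjusted p = 7.2e-07) and PMEPCRF at 225 ± 61.6, 775 ± 238 and 1166 ± 151 (2.32 ± 0.31). Tubulin genes gave none higher and 2 lower of 5, TUB7 by -1.23 ± 0.25 and TUB1 by -0.81 ± 0.15.

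Metabolic families gave the following counts, beside 12.7% of all probe sets higher and 10.8% lower. Of 14 glutathione S-transferase genes 3 were higher and 3 lower (2 and 3 of 12 by gene description), and of 21 beta-glucosidase genes 3 and 3. Of 23 cytochrome P450 genes 5 were higher and none lower, a count of 3 without UAS-BLJ 1 or WT 2_2. A listing by gene description gave 6 and none of 24. CYP71B26 read 25.1 ± 1.67, 142 ± 52.9 and 207 ± 10.4 in WT, SHR and UAS-BLJ (2.44 ± 0.29, adjusted p = 1.41e-06), and CYP71B23 10.7 ± 8.59, 9.98 ± 4.74 and 95 ± 36.1 (2.06 ± 0.28). Of 47 UDP-glycosyltransferase genes 10 were higher and 4 lower, and by gene description 7 and 5 of 45, which is near the shares over all probe sets. Beside UGT72E3, UGT87A2 read 62.7, 77 and 67 in WT, 167 ± 19.4 in SHR and 441, 437 and 407 in UAS-BLJ, above both (2.39 ± 0.18, adjusted p = 1.07e-09). UGT76B1, a regulator of salicylate-related defence, was higher by 1.84 ± 0.29, and UGT74F1, which glucosylates salicylate, was lower (-2.02 ± 0.34, 64.2 ± 21.5 in WT and 3.26 ± 1.05 in UAS-BLJ). Of 5 phenylpropanoid genes UGT72E3 was higher and CCR2, a cinnamoyl-CoA reductase gene, lower (-1.81 ± 0.46, adjusted p = 0.00505, with 579 ± 151 in WT, 107 ± 28.1 in SHR and 153 ± 34 in UAS-BLJ). HCT, of the same path, was not called (0.50 ± 0.23, adjusted p = 0.136, but 0.0489 with the 6 arrays of the contrast alone).

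Stress-related regulators did not move one way. Of 6 WRKY transcription factor genes 3 were higher and none lower, and the same 3 were above SHR, where 12.7% of all probe sets were higher against WT and 4.11% against SHR. WRKY53 read 51.1, 31.7 and 32.1 in WT, 96.9, 41.2 and 69.3 in SHR and 224, 252 and 172 in UAS-BLJ (2.1 ± 0.33, adjusted p = 4.33e-05), and WRKY22 was higher by 1.01 ± 0.22 (adjusted p = 0.00154). The call of WRKY47 (0.77, adjusted p = 0.0347) was lost without UAS-BLJ 1 or 2 or WT 2_2 or 2_3 (adjusted p = 0.0661 to 0.156). Of 3 wound and stress genes measured 1 was higher and 1 lower (12.7% and 10.8% of all probe sets were). CML38, a calmodulin-like gene, was unrestored (1620 ± 170 in WT, 507 ± 140 in SHR and 596 ± 149 in UAS-BLJ, -1.44 ± 0.30, adjusted p = 0.000883) and STZ, a zinc finger gene of stress response, was not called (0.25, adjusted p = 0.54). Of 5 gibberellin genes 1 was called, a share near the 23.5% called over all probe sets. It was SLY1, an F-box gene of the pathway (-0.52 ± 0.17, adjusted p = 0.0257), and not without UAS-BLJ 1 or 2 or WT 2_1 or 2_3 (adjusted p = 0.0519 to 0.154).

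Markers of other cell types could be followed only in part. Of 12 epidermis and root hair genes 2 were measured, EXPA7 and EXPA18, with a summed signal of 37.9 to 104 on the WT arrays, 92 to 140 on the SHR arrays and 113 to 168 on the UAS-BLJ arrays, none of them at 0. EXPA7 was called higher (1.38 ± 0.46, adjusted p = 0.0323), a call that ended without UAS-BLJ 1 or 2 or WT 2_2 or 2_3 (adjusted p = 0.107 to 0.176), after quantile normalization (0.054) and with a pseudocount of 64 (0.105), and EXPA18 was not (0.81, adjusted p = 0.0997, but 0.00713 in the fit of 9 arrays). The 1 vascular gene measured, LHW, read 359 ± 109 in WT and 217 ± 39.3 in UAS-BLJ (-0.67, adjusted p = 0.111, but 0.0312 in the fit of 9 arrays). Of the stem cell genes, BBM was lower (-1.36 ± 0.42, adjusted p = 0.0207) and AGL42 higher (0.85 ± 0.25, adjusted p = 0.0132). BBM lost its call without UAS-BLJ 1 or 3 or WT 2_2 (adjusted p = 0.072 to 0.0955), and AGL42 without UAS-BLJ 3 or WT 2_1 (0.0505 and 0.0567). None of the root cap and nutrient transport genes listed was measured, and no call was made among 3 mitosis, 2 replication, 1 suberin and 1 flavonoid genes. Of 2 heat shock genes 1 was lower. Over all probe sets 12.7% were higher and 10.8% lower. The listed markers are few, and the part of other cell types in the results was not tested.

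**Figure D5:**
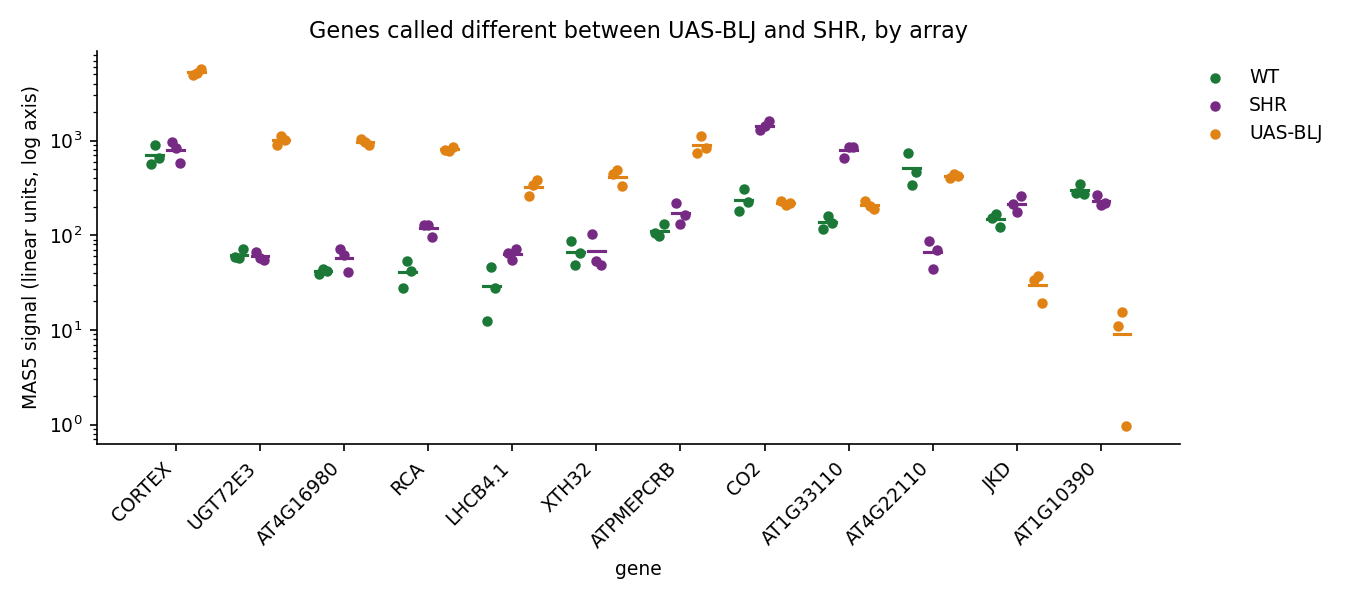
Signal on each array, in linear MAS5 units on a log axis, of 12 genes that were called different between UAS-BLJ and SHR (horizontal axis), with a bar at each group mean (3 arrays per group). From CORTEX to ATPMEPCRB all UAS-BLJ arrays lie above WT; CO2, AT1G33110 and AT4G22110 lie near WT, and JKD and AT1G10390 lie below it.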

How the data were processed

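The deposited values are linear intensities of 1 colour. MAS5 is the tool named for them, per the submitters' processing notes, without a version there. Groups follow the sample labels. Of 22810 probe sets, 64 controls were left out. The annotation gives 1 gene to 13513 of the rest, several to 503, from which none was named, and none here to 8730. The log2(intensity + 16) values were tested with limma 3.58.1 (lmFit, eBayes with a mean trend, Benjamini-Hochberg adjustment) in R 4.3.3, unfiltered, on the 24 one-cycle arrays, and apart from these on the 6 two-cycle arrays. Replicate arrays correlated at 0.972 to 0.988 and none were identical.

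Groups, classes, lists and genes were chosen with earlier results of these data known, and the lists by gene symbol and the peroxidase list after results were seen. Named genes of the classes were ranked by change, among probe sets with 1 gene, no shared-probe suffix and a higher-group mean over the median signal of 87.3. Members of lists were ranked by adjusted p, or by change where few were called, with no suffix or signal rule. Each gene stands by its brightest probe set. Other list members in the text, and UGT72E2, were chosen after their values were seen. Arrays with the same last digit had deviations correlated at -0.18 to -0.01 between WT and UAS-BLJ, and at 0.24, 0.22 and -0.03 between WT and SHR, so numbers were not taken as pairs. In a simulation of UAS-BLJ minus WT, 200 of 22746 probe sets were changed, with independent noise around the same mean in all groups. There 55 of 100 changes of 1 log2 unit and 96 of 100 changes of 2 were recovered, with 9 false calls. In the data 23.5% of probe sets were called, so these rates need not hold there. Alternatives were quantile normalization, a pseudocount of 64, a filter on low values, fits of 9 or 6 arrays, a replicate block, no fold minimum and leaving out each array. Sequences were not used here.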

Additional observations from a re-analysis of the deposited data

How the results depend on the processing

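Among 140 genes followed, every change that was called kept its direction under the alternatives run, while class sizes moved with the scale. With a pseudocount of 64, the calls at 2-fold or more were 690 higher and 648 lower. The unrestored classes then held 390 high and 274 low in WT, with 600 not called against SHR, 19 between SHR and WT and 45 beyond SHR. The other counts were 55 restored from the WT-high side, 1 overshoot above and 1 below, and 201 higher and 97 lower where WT and SHR were not called different. Without a fold minimum these classes held 1671 and 1625 unrestored, 690 and 566 restored, 21 and 22 overshooting, and 1237 and 771 higher and lower. In the fit of 9 arrays 1069 probe sets were lower in UAS-BLJ than in SHR, 173 were restored from the WT-low side and 50 lay between. In the fit of 6 arrays UAS-BLJ against SHR gave 2813 calls, 1496 higher and 1317 lower. The median of the two-cycle set higher in WT was -0.14 with a pseudocount of 64 and -0.125 after quantile normalization. The cause of these shifts was not tested.

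Leaving out 1 array gave 4110 to 5282 calls of UAS-BLJ against WT and 1050 to 1592 against SHR (595 to 934 higher, 437 to 658 lower). It gave 3633 to 4963 calls of WT against SHR (1873 to 2535 higher, 1760 to 2474 lower). Overshoot counts ran from 1 to 4 on either side, the probe sets between SHR and WT from 16 to 40, and the two-cycle medians from -0.22 to -0.04 and from 0.12 to 0.34. With the replicate block 5344 probe sets were called between UAS-BLJ and WT, and among the named genes AT5G23830 gained a call (adjusted p = 0.0493). Of these 140 genes, 20 lost or gained a call under some setting. Changes that turned sign were all uncalled and near 0. AT4G36640 read 0.002 after quantile normalization and -0.243 to 0.087 without 1 array, AT4G22110 -0.449 to 0.096, AT1G31950 -0.128 to 0.084, AT3G18280 -0.047 to 0.367, JAL33 -0.241 to 0.334 and CO2 -0.242 to 0.123. The precision is limited by 3 arrays a group. In the simulation, where only 200 of 22746 probe sets were changed, 55 of 100 changes of 1 log2 unit were called. That rate need not hold for the data.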

Other observations

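Some named genes were high on every WT array and near the floor on every UAS-BLJ array, or the reverse. With signals above 160 on all arrays of one group and below 16 on all arrays of the other, 7 named genes were high in WT and low in UAS-BLJ, and 6 were the reverse. SHR is not part of that rule: AT1G10390, of the former, had a mean of 231 in SHR, and AT2G40010, of the latter, 405. Among the former, AT4G16447 had group means of 335 in WT, 47.7 in SHR and 8.14 in UAS-BLJ, and AT5G24240 had 200 in WT, 2.66 in SHR and 1.88 in UAS-BLJ. Among the latter, AT5G53880 had 12 in WT, 10.5 in SHR and 215 in UAS-BLJ, and AT3G18250 had 6.33, 35.7 and 224.

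The driven line and the two-cycle arrays set some of these genes apart. AT2G14460, at 516 in UAS-BLJ and 142 in SHR, read 3.47 to 8.35 in the other 5 lines and 11.1 and 15.1 in two-cycle WT and SHR, but 2767 in the wild-type meristem arrays of the Columbia ecotype. AT4G29200, at 1336 in WT and 9.29 in SHR on the one-cycle arrays, read 1572 and 1517 on the two-cycle arrays, where the groups were not separated by 2-fold. No test was made between array sets, which differ in labelling or ecotype.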
